A study of Mus musculus and synthetic construct with 15 samples.

Results

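Of 3820 mouse genomic regions carried in an AAV9 reporter library, 396 lay in gene deserts, here defined as having their midpoint more than 100 kb from the body of every protein-coding gene in the RefSeq annotation of GRCm38 (mm10). The other 3424 regions were nearer to a gene. Each region is 400 bp long. AAV9 is an adeno-associated virus serotype that infects heart muscle well. Wild-type pups received the library on postnatal day 0, and their hearts were taken at postnatal day 7 and divided into the chambers. The 15 libraries formed 3 groups of 5, which were RNA of the atrium, RNA of the ventricle (both labelled cardiomyocytes, genotype WT, treatment AAV9 library) and DNA of the AAV genomes. The series title gives enhancers selective for a heart chamber as the subject. The counts are of reporter constructs and hold no endogenous transcripts, so the tissue labels could not be checked against marker genes.

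A gene desert is a long stretch of chromosome without protein-coding genes. Some deserts hold enhancers that act on a distant gene by looping, and deserts next to developmental transcription factor genes, such as the Iroquois (Irx) clusters, are known for such long-range enhancers. A massively parallel reporter assay takes each candidate sequence out of its chromosomal place and puts it next to a reporter gene, so RNA over DNA measures what the sequence itself does in the cell and not its contact with a gene. Below, a region is named by its nearest protein-coding gene, which gives its place and not its target.

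The distance to the nearest gene body ran from 100.2 to 2081 kb with a median of 212 kb. There were 206 desert regions over 200 kb and 9 over 1 Mb away. They lay on 20 chromosomes beside 293 genes and formed 341 loci when regions within 50 kb were joined, 299 of them with a single region. A lncRNA gene contained 69 of the regions, and 58 had no gene of any type within 100 kb. The nearest distances inside the limit belonged to regions by Ext1 at 100.2 kb, Pcdh18 at 100.9 kb and Rbm19 at 101.1 kb, with atrial log2 RNA over DNA of 2.40, 3.82 and -1.17. Just outside it were regions by Zfp36l2 at 99.8 kb and by Magi3 and Irx4 at 99.1 kb, with -1.45, 1.67 and -1.97. The identifiers carry prefixes that the sources used here do not explain, and they are used as given. Desert regions made up 85 of 592 aMTF, 106 of 762 vMTF, 80 of 604 p300AVB and 119 of 945 ESC-Neg regions, but 10 of 1126 GeneAVB regions (0.888%).

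Most desert sequences were not in the tables used here, but 4 of the 396 regions overlap the start of a lncRNA gene whose promoter RefSeq lists (GRCm38.p6). These stretches are shown as the desert sequences that could be printed, the first 2 from regions higher in ventricle than in atrium and the last 2 from regions with no called chamber difference. Except for the region near Adamts15, the regions were chosen for their available sequence and not by the rule for named regions. The stretches are chr9:30781398-30781683 (minus strand, lncRNA Gm31013, 117.7 kb from Adamts15), chr9:24974154-24974257 (plus strand, E130101E03Rik, 133.8 kb from Herpud2), chr2:21964118-21964363 (minus strand, Gm39767, 133.6 kb from Gpr158) and chr16:5431144-5431443 (plus strand, Gm41414, 175.3 kb from Eef2kmt). Capitals mark the only match found to a motif of a cardiac transcription factor family, NKX2-5 (TNAAGTG). It was sought on both strands together with the GATA factor family (AGATAA), MEF2 (CTA, any 4 bases, TAG), T-box (GGTGTGA), TEAD (GGAATG) and ERR (AAGGTCA).
Adamts15 region: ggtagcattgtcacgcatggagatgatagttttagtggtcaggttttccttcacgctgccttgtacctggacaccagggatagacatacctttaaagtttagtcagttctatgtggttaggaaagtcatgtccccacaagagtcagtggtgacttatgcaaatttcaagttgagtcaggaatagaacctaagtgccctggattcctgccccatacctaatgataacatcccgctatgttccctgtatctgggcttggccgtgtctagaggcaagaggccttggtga
Herpud2 region: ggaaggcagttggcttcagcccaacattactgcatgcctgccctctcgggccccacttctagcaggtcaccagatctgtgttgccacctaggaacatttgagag
Gpr158 region: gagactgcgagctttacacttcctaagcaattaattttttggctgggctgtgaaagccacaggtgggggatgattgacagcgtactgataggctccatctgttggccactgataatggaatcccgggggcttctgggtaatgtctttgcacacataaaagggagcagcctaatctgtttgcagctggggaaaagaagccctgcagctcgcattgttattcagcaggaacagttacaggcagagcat
Eef2kmt region: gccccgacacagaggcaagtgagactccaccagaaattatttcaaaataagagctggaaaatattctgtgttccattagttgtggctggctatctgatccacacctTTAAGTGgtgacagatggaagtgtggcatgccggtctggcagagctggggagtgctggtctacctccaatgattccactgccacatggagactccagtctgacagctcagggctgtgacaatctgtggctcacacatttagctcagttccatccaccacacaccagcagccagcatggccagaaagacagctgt

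The match in the Eef2kmt region is a description of letters, and 11.5% of 32851 promoter windows of the same 300 bases hold the NKX2-5 letters. In windows as long as each of the 4 stretches, the letters of the other motifs are held by 1.05% to 14.7%. The region near Adamts15 gave 295, 397, 455, 464 and 457 CPM in atrial replicates 1 to 5, 869.6, 722, 667, 696 and 778 in ventricle and 478, 526, 366, 537 and 485 in DNA. Here CPM are counts per 1e+06 of a library's counts on the tested regions (mean DNA count of 10 or more), after TMM scaling. For regions without DNA counts, CPM are of library totals. Every ventricular library was above every atrial one, with a log2 atrium over ventricle of -0.83 ± 0.13 (SE, adjusted p = 0.00012, edgeR). The Herpud2 region gave 60.6 to 124 CPM in atrium and 129 to 159.7 in ventricle, at -0.82 ± 0.21 (adjusted p = 0.0069). The Gpr158 region, tagged ESC-Neg, was above DNA in both chambers, with log2 values of 1.30 ± 0.23 in atrium and 1.51 ± 0.17 in ventricle (adjusted p = 0.00018 and 5.3e-07). The Eef2kmt region was nearer to its DNA level, at 0.55 ± 0.19 and 0.40 ± 0.09 (adjusted p = 0.016 and 0.0010). Between chambers these last 2 regions had log2 values of -0.09 ± 0.20 and 0.28 ± 0.20 and were not called.

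Atrial replicate 1 held 877773 counts in total and ventricular replicate 1 held 1271527, while the other RNA libraries held 1718563 to 3781726 and the DNA libraries 2312820 to 2958271. Desert regions took 8.23% to 9.40% of the RNA counts and 6.39% to 6.84% of the DNA counts. The replicate 1 RNA libraries stood apart. Of the 396 desert regions, 97 had no count in atrial and 85 in ventricular replicate 1, against 2 to 15 in the other RNA libraries and 87 to 96 in DNA. Results that rest on replicate 1 are therefore also given for replicates 2 to 5. Nothing in the labels says that replicates came from separate animals, so p-values measure the spread between these libraries, which may be technical.

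Desert regions were thinly represented in the virus DNA. Their median mean DNA count was 25.4, against 79.5 for regions nearer to genes, and 233 of 396 (58.8%) reached the mean DNA count of 10 needed for testing, against 2368 of 3424 (69.2%). Of the 163 others, 61 had no count in any DNA library, which allows up to 1.01 to 1.30 CPM per library at 3 counts, for counting error only. These 61 regions together gave 36.5 CPM (of library totals) in atrial and 36.2 in ventricular replicate 1. In replicates 2 to 5 they gave 3561 to 3734 CPM in atrium and 3699 to 4186 CPM in ventricle. The 427 nearer regions without DNA counts went the same way, at 161 CPM in atrial and 126 in ventricular replicate 1. Their replicates 2 to 5 gave 29777 to 34837 CPM in atrium and 35580 to 37800 in ventricle. RNA without DNA was thus a feature of replicates 2 to 5 in both sets. Whether the DNA libraries stand for the virus that those hearts received was not tested.

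The strongest of the regions without DNA counts lay 124.7 kb from Pou4f1, a transcription factor gene of sensory neurons (chr14:104336793-104337192), inside the lncRNA gene D130079A08Rik. It had 6.84, 851, 659, 629 and 653 CPM in atrial replicates 1 to 5 and 3.15, 561, 486, 990.3 and 654 CPM in ventricle. A region 376.5 kb from Lrig3 had 0, 236, 300.002, 183 and 269 CPM in atrium and 0, 234, 179, 157 and 163 in ventricle. A region 181.6 kb from Arhgap42 had 0 CPM in replicate 1 of both chambers, 131 to 212 in the other atrial and 166 to 208 in the other ventricular libraries. In all 3 the replicate 1 libraries were at or near 0, as DNA was. The ranges of replicates 2 to 5 overlapped between chambers in the regions by Pou4f1, Lrig3 and Arhgap42.

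Against DNA, desert regions were more often high than regions nearer to genes. In atrium 116 of the 233 tested desert regions were called higher than DNA (49.8%), where 38.4% of all tested regions were, and 52 were called lower (22.3%), where 36.3% of all were. In ventricle 128 were higher (54.9%, all regions 43.4%) and 62 lower (26.6%, all regions 37.8%). A call is an adjusted p under 0.05 in edgeR's quasi-likelihood test over all 2601 tested regions. At least 2-fold higher were 89 desert regions in atrium (38.2%, all regions 28.1%) and 101 in ventricle (43.3%, all regions 31.6%), and at least 2-fold lower 31 (13.3%, all regions 20.9%) and 29 (12.4%, all regions 21.5%). RNA and DNA libraries did not overlap in 130 desert regions for atrium (55.8%, all regions 60.4%) and 165 for ventricle (70.8%, all regions 70.0%). In RNA replicates 2 to 5 alone, atrium had 119 regions called higher and 52 lower, and ventricle had 127 and 63. Both comparisons share the DNA libraries. The median log2 RNA over DNA was 0.58 in atrium and 0.74 in ventricle for desert regions and -0.02 and 0.08 for the others. Scaling on the regions that the deposited group column calls Neg gave 143 higher and 37 lower in atrium. It moved the median of all tested regions by 0.40, and the desert median stayed 0.60 above the nearer one.

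The values moved with how much DNA a region had. Among regions with a mean DNA count of 10 to under 100, the median atrial log2 value was 1.23 in 106 desert regions and 1.21 in 748 nearer ones, and the ventricular one was 1.39 and 1.43. At 100 to under 300 the medians were 0.36 and 0.19 in atrium and 0.60 and 0.21 in ventricle, over 58 desert and 512 nearer regions. At 300 or more they were -0.36 and -0.66 in atrium and -0.69 in both sets in ventricle, over 69 and 1108 regions. The lowest band held 106 of the 233 tested desert regions but 748 of the 2368 others. In single libraries the desert minus nearer gap in the lowest band was 0.36 in atrial and 0.40 in ventricular replicate 1. In replicates 2 to 5 it was -0.049 to 0.095 in atrium and -0.063 to 0.13 in ventricle. At 300 or more the atrial gap was 0.054 in replicate 1 and 0.24 to 0.31 in replicates 2 to 5. The gap between the sets thus differed between bands and libraries, and the part of DNA content in it was not tested.

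**Figure D1:**
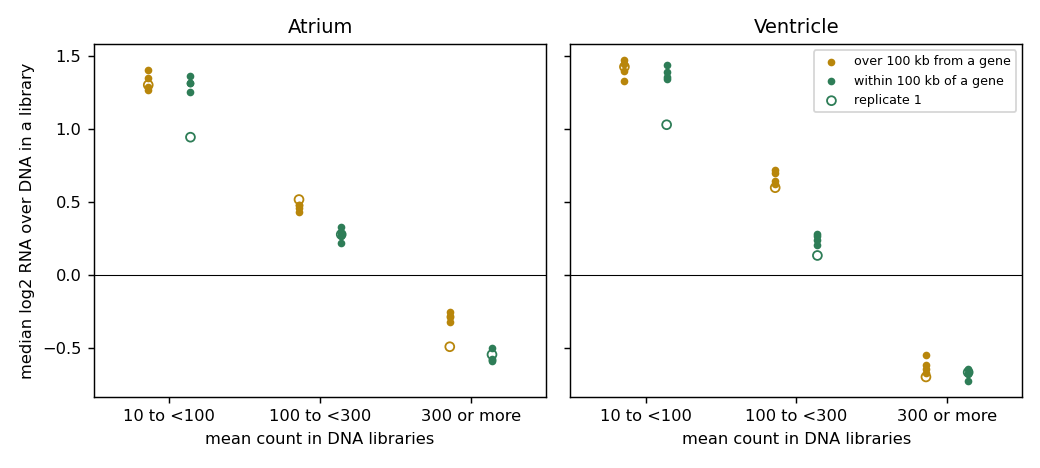
Median log2 RNA over DNA (y axis) in each RNA library for desert regions (gold) and regions nearer to genes (green), by the region's mean DNA count (x axis), in atrium (left) and ventricle (right). Open circles are replicate 1, filled circles replicates 2 to 5. Medians fall with DNA count in both sets, and at 10 to under 100 the desert and nearer medians of the fit are 1.23 and 1.21 in atrium. In atrial replicate 1 alone they are 1.30 and 0.94.

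Desert regions of the aMTF, vMTF, p300AVB and ESC-Neg prefixes had higher medians over DNA than nearer regions of the same prefix and lower median DNA counts, whereas the few GeneAVB regions had lower medians at about equal DNA. Within bands of DNA count this order was mixed. At 10 to under 100, desert aMTF medians were 1.32 in atrium and 1.69 in ventricle, below the 2.11 and 2.14 of nearer aMTF regions. At 100 to under 300 the desert aMTF medians were higher, at 0.81 and 0.87 against 0.36 and 0.22. The vMTF medians there were lower, at 0.92 and 1.10 against 1.07 and 1.32. Of 66 tested desert vMTF regions, 43 were higher than DNA in atrium (65.2%, 53.5% of 458 nearer vMTF regions) and 44 in ventricle (66.7%, 64.4% of the nearer ones), so that in ventricle both shares were close. The vMTF medians were 1.23 and 1.81, against 0.64 and 0.87 nearer to genes. Of 53 aMTF regions, 31 and 33 were above DNA (58.5% and 62.3%, against 46.2% and 45.4% of 366), with medians of 0.76 and 1.10 (0.29 and 0.19). For 51 p300AVB regions the numbers were 25 and 21 (49.0% and 41.2%, against 33.5% and 34.3% of 370), with medians of 0.53 and 0.24 (-0.07 and -0.14). The 60 ESC-Neg regions had 19 and 29 above DNA (31.7% and 48.3%, against 25.6% and 34.6% of 480) and 17 and 16 below it (28.3% and 26.7%, against 42.7% and 40.4%), with medians of 0.12 and 0.45 (-0.33 and -0.10). The median DNA counts of desert and nearer regions were 90.9 and 227.9 for vMTF, 145.6 and 272 for aMTF, 125.8 and 231.2 for p300AVB and 105.3 and 198.3 for ESC-Neg. Of the 7 tested GeneAVB regions 1 was above DNA in atrium and 3 in ventricle, and 4 were below it in each, with medians of -0.26 and -0.36 (-0.13 and -0.09 in 858 nearer ones) at median DNA counts of 354.2 and 356.9. Most of these 7 regions lay in a single desert between Dlx2 and Itga6, where some overlap each other in sequence, so they largely describe that locus. No difference between desert and nearer regions of a prefix was tested.

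Regions farther out in the deserts had somewhat higher medians over less DNA, an order not kept within bands of DNA count. The median atrial log2 value was 0.55 in 130 regions up to 200 kb from a gene, 0.75 in 88 regions from 200 to 500 kb and 0.72 in 15 regions beyond 500 kb. In ventricle the values were 0.65, 0.79 and 1.09. The median DNA counts of these bands were 125.5, 109.1 and 80.8, falling in the same order. Inside a lncRNA gene 21 of 44 tested regions were above DNA in atrium and 15 below it (47.7% and 34.1%), and outside one 95 and 37 of 189 (50.3% and 19.6%), where all tested regions had 38.4% and 36.3%. In ventricle 25 and 14 of the 44 were above and below DNA (56.8% and 31.8%) and 103 and 48 of the 189 (54.5% and 25.4%; all regions 43.4% and 37.8%). Between chambers 1 of the 44 was higher in atrium and 8 in ventricle (2.27% and 18.2%). Of the 189, 31 and 33 were (16.4% and 17.5%), where all tested regions had 15.8% and 15.1%. No test was made between these sets.

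The highest RNA over DNA in both chambers came from the region 131.9 kb from Plpp3, a gene for a lipid phosphate phosphatase (chr4:105364498-105364897, aMTF+p300). It gave 2201, 2176, 2049, 1990.4 and 1798 CPM in atrial replicates 1 to 5, 2113, 2029, 1933, 2109 and 2072 in ventricle and 14.4, 20.02, 16.9, 10.6 and 13.02 in DNA. The chambers overlapped throughout, and the lowest RNA library was far above the highest DNA library. Replicate 1 gave log2 values of 7.14 in atrium and 7.08 in ventricle, and replicates 2 to 5 gave 6.95 and 7.01. This was 127-fold over DNA in atrium and 137-fold in ventricle, with chambers 0.01 ± 0.07 apart on the log2 scale (adjusted p = 0.93).

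A region 259.2 kb from Slc30a10, a manganese transporter gene (chr1:185727784-185728183, p300AVB), had the second highest atrial value, 5.61 ± 0.93, with 5.74 ± 0.95 in ventricle (adjusted p = 0.00053 and 0.00047). It falls outside the rule for named regions because its replicate 1 libraries overlapped DNA, and it was chosen after its values were seen. It gave 34.3, 1839, 2133, 2255 and 2097 CPM in atrial replicates 1 to 5, 36.4, 1988, 2277, 1992 and 2104 in ventricle and 23.7 to 42.4 in DNA. Replicate 1 was thus at the DNA level, with log2 values of 0.19 and 0.25, while replicates 2 to 5 gave 5.93 and 5.97.

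**Figure D2:**
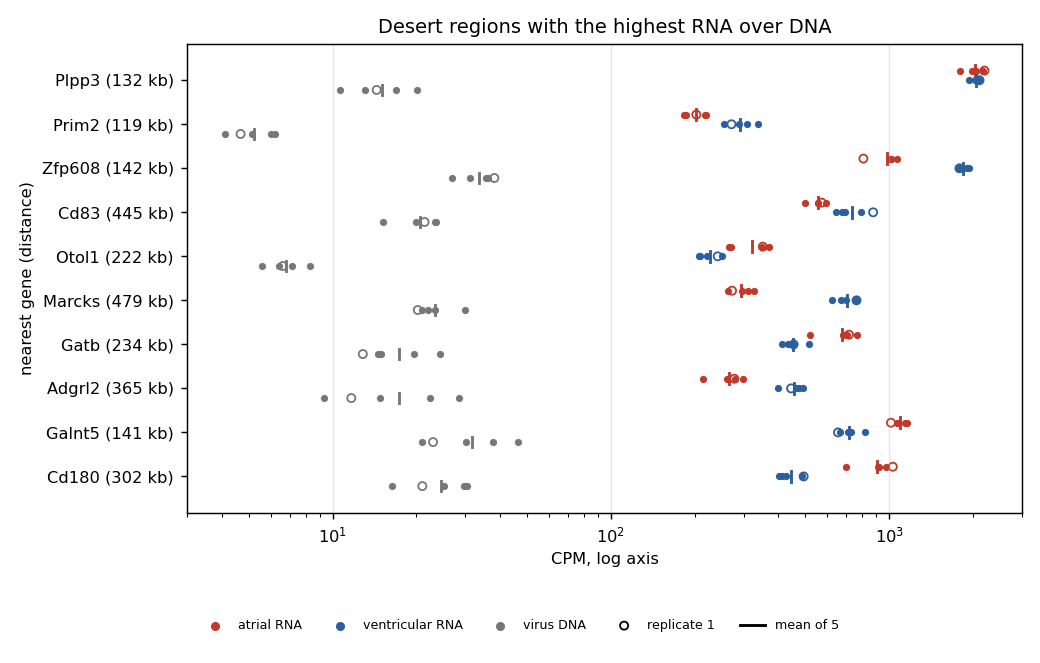
CPM (x axis, log scale) of the desert regions with the highest RNA over DNA among those whose RNA and DNA libraries did not overlap, one row per region named by its nearest gene and distance, in atrial RNA (red), ventricular RNA (blue) and virus DNA (grey). Dots are libraries, open circles replicate 1 and ticks the mean of 5. Every RNA library lies above every DNA library, and the Plpp3 region has 1798 to 2201 CPM in atrium against 10.6 to 20.02 in DNA.

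Other desert regions were high in both chambers with a chamber preference. The region 119.4 kb from Prim2, a DNA primase subunit gene (chr1:33334163-33334562, vMTF+p300), had 183 to 219.8 CPM in atrium, 255 to 338 in ventricle and 4.09 to 6.20 in DNA, log2 values of 5.15 ± 0.19 and 5.79 ± 0.16 over DNA (adjusted p = 3.4e-11 and 9.5e-15). Chambers did not overlap, and the ventricle was higher by 0.52 (log2 atrium over ventricle -0.52 ± 0.13, adjusted p = 0.0067). The region 222.2 kb from Otol1, the gene of an inner ear matrix protein (chr3:70250722-70251121, p300AVB), had 265 to 371 CPM in atrium, 208 to 252 in ventricle and 5.58 to 8.29 in DNA, 5.44 ± 0.19 and 5.04 ± 0.16 over DNA. Here the atrium was higher, by 0.52 ± 0.14 (adjusted p = 0.0087). The region 234.3 kb from Gatb, a mitochondrial tRNA amidotransferase gene (chr3:85339569-85339968, aMTF+p300), was likewise higher in atrium, with 519 to 769 CPM against 412 to 514 in ventricle and 12.8 to 24.4 in DNA (log2 atrium over ventricle 0.60 ± 0.11, adjusted p = 0.00062).

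Galnt5 (a glycosyltransferase gene, 140.9 kb away), Cd180 (a Toll-like receptor relative of B cells, 301.5 kb), Cd83 (a dendritic cell surface protein, 445.4 kb), Marcks (an actin-binding kinase substrate, 479 kb) and Adgrl2 (a latrophilin receptor, 365 kb) lay nearest to the next regions. The Galnt5 region had 1015 to 1159 CPM in atrium and 655 to 821 in ventricle over 21.0 to 46.5 in DNA. Marcks had 263 to 327 and 622 to 763 CPM over 20.2 to 29.9 in DNA. Adgrl2 had 215 to 298 and 397 to 491 over 9.35 to 28.6, and Cd83 499 to 593 and 646 to 876 over 15.2 to 23.5. No chamber ranges overlapped in the regions by Galnt5, Marcks, Adgrl2 and Cd83, and all 4 were called between chambers, Galnt5 alone higher in atrium. The DNA counts behind these values were small, with means of 37.4 to 68.0 per library.

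At the other end, a region 367.9 kb from Arid1b, a chromatin remodelling subunit gene (chr17:4626158-4626557, vMTF+p300), gave far less RNA than DNA. It held 2881, 1779.6, 1307, 1586 and 1669 CPM in atrium and 2255, 1211, 936, 1185 and 1059.5 in ventricle against 25865 to 34361 in DNA. In both chambers replicate 1 was the highest, and replicates 2 to 5 gave log2 values of -4.35 and -4.84 against -3.36 and -3.72 in replicate 1. Regions by Chd9 (a chromatin remodeller, 172.1 kb) and Cdyl (a chromodomain co-repressor, chr13:35507138-35507537, 152.5 kb) showed the same order, with 591 to 832 CPM in ventricular replicates 2 to 5 and 1649.7 in replicate 1 for Chd9, and 1449 to 1788 and 3204 for Cdyl. Against DNA the log2 values in ventricle were -2.24 ± 0.29 and -2.29 ± 0.22. Replicate 1 therefore lay nearer to DNA in these abundant constructs, but still below it in each.

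Regions by Fermt1 (an integrin activator, 193 kb) and Mterf1b (a mitochondrial transcription terminator, 113.9 kb) were also low. The Fermt1 region had 145 to 237 CPM in atrium and 136 to 180.5 in ventricle against 684 to 892 in DNA. Mterf1b had 3.32 to 23.2 and 5.88 to 11.1 against 49.4 to 64.3. A region 350.9 kb from Tmem132c had 24.96, 2.97, 20.2, 2.37 and 0.610 CPM in atrium, 2.05 to 13.8 in ventricle and 22.8 to 32.9 in DNA. It was called lower in ventricle (-2.30 ± 0.42, adjusted p = 8.4e-05), while in atrium, where replicate 1 overlapped DNA, it was not (adjusted p = 0.053).

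Between chambers, a comparison that uses DNA only for the filter, 73 of 233 desert regions were called (31.3%), where 30.9% of all tested regions were. Higher in atrium were 32 (13.7%, all regions 15.8%) and higher in ventricle 41 (17.6%, all regions 15.1%). With replicates 2 to 5 alone 29 and 32 were called. The median log2 atrium over ventricle was -0.07 in desert regions and 0.03 in the others. Scaling on Neg regions turned these medians to 0.09 and 0.19, with 42 desert regions higher and 22 lower. At least 2-fold apart were 9 regions higher in atrium (3.86%, all regions 4.88%) and 10 higher in ventricle (4.29%, all regions 3.04%). In 60 desert regions the libraries of the chambers did not overlap at all (25.8%, all regions 23.0%).

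The chamber calls of desert regions leaned the same way as those of nearer regions in the vMTF, aMTF, p300AVB and ESC-Neg prefixes. Of 66 vMTF desert regions 25 were higher in ventricle (37.9%, 26.9% of nearer vMTF regions) and 6 in atrium (9.09%, 12.4%), with a median log2 atrium over ventricle of -0.33 (-0.15). Of 53 aMTF regions 12 were higher in atrium (22.6%, 23.0% of nearer ones) and 6 in ventricle (11.3%, 10.7%), with a median of 0.12 (0.18). Of 51 p300AVB regions 13 were higher in atrium (25.5%, 21.6%) and 3 in ventricle (5.88%, 7.57%), with a median of 0.26 (0.22). The 60 ESC-Neg regions had 1 higher in atrium (1.67%, 4.38%) and 6 in ventricle (10%, 13.3%). Within aMTF, the 36 desert regions marked +p300 had 11 higher in atrium and 2 in ventricle, against 57 and 27 of 230 nearer ones. The 17 desert regions marked -p300 had 1 and 4, whereas the 136 nearer ones had 27 and 12, the opposite order. These are counts with no test between prefixes or between desert and nearer regions.

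**Figure D3:**
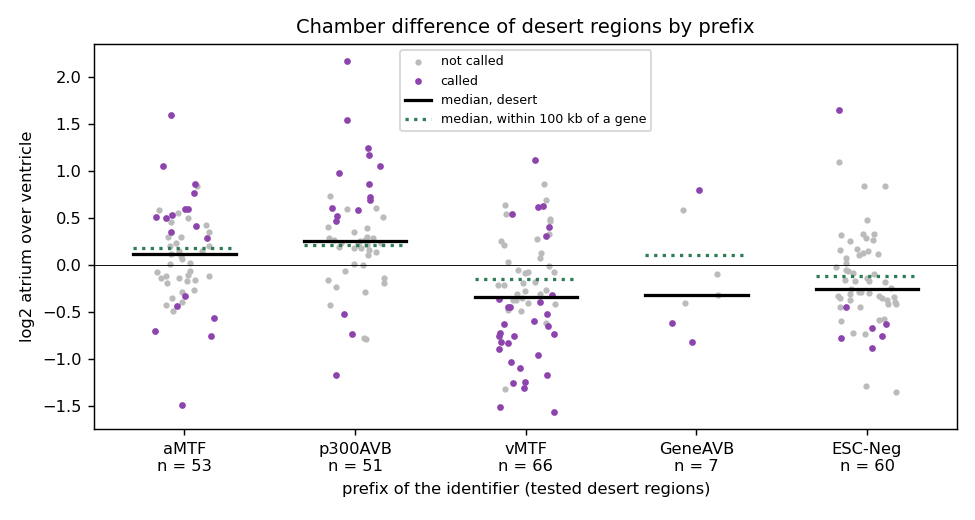
Log2 atrium over ventricle (y axis) of each tested desert region by the prefix of its identifier (x axis), purple where called. Black lines are medians of desert regions and green dotted lines medians of regions nearer to genes. The vMTF median is -0.33 and the p300AVB median 0.26, and every prefix spans both signs.

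The largest atrial preference was that of the region 261.5 kb from Cdyl (chr13:35398107-35398506, p300AVB). It gave 1864, 1569.7, 1457, 1562 and 1639 CPM in atrial replicates 1 to 5, 374, 371, 349, 372 and 360.1 in ventricle and 171 to 247 in DNA. Chambers were far apart with a narrow ventricular range, and both were above DNA (log2 2.88 ± 0.12 and 0.84 ± 0.10). The log2 atrium over ventricle was 2.16 ± 0.08 (adjusted p = 6.3e-11), 2.31 in replicate 1 and 2.13 in replicates 2 to 5. The other Cdyl region described above, in the same desert, had 0.27 ± 0.28 (adjusted p = 0.54).

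The region 224.7 kb from Ttc29, a sperm flagellum gene (chr8:77988335-77988734, aMTF+p300), had 1816 to 2006 CPM in atrium, 531 to 713 in ventricle and 474 to 564 in DNA. Its ventricular RNA overlapped DNA, so the log2 difference of 1.596 ± 0.09 between chambers (adjusted p = 5.3e-09) came with 1.77 ± 0.08 over DNA in atrium and 0.29 ± 0.09 in ventricle. Another pattern held 128.1 kb from Cyld, a deubiquitinase gene (chr8:88879837-88880236, p300AVB), with 369, 436, 398, 269.8 and 319 CPM in atrium, 104, 111, 128, 126 and 153 in ventricle and 201 to 239.5 in DNA. This region was above DNA in atrium (0.65 ± 0.13, adjusted p = 0.00051) and below it in ventricle (-0.77 ± 0.12, adjusted p = 1.9e-05).

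The other atrial regions outside the ESC-Neg tag were lower or less even. By Tnc, the gene of the matrix protein tenascin C (391 kb), atrium had 31.2, 47.0, 63.6, 68.4 and 28.7 CPM and ventricle 28.4, 14.3, 23.2, 20.2 and 17.4, so that the lowest atrial and highest ventricular library nearly met (log2 1.24 ± 0.33, adjusted p = 0.0093). In replicate 1 the difference was 0.16, and in replicates 2 to 5 it was 1.49. By Gadd45g, a growth arrest gene (229.4 kb), atrium had 159 to 260.0 CPM, close to the 198 to 238 of DNA, and ventricle 61.8 to 102 (1.12 ± 0.20, adjusted p = 0.00047). By Efnb2, the gene of the arterial ligand ephrin-B2 (128.4 kb), both chambers were below DNA, with 789.8 to 1246 CPM in atrium, 396 to 641 in ventricle and 1728 to 2006 in DNA (1.05 ± 0.15, adjusted p = 0.00011). Regions by Cd180 and Adra2a, an adrenergic receptor gene (138.4 kb), had 1.05 ± 0.11 and 0.86 ± 0.17 (adjusted p = 2.5e-06 and 0.0012).

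**Figure D4:**
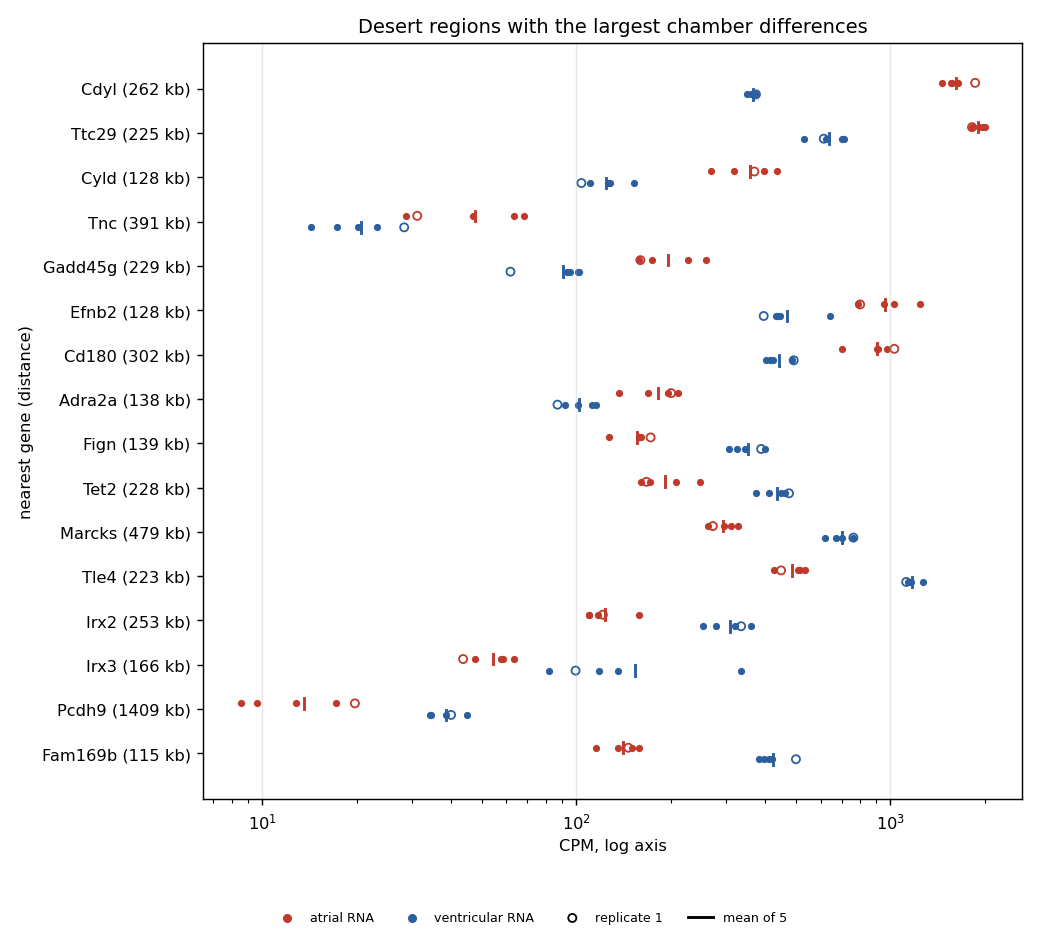
CPM (x axis, log scale) of the 16 named desert regions with the largest chamber differences, 8 in each direction, in atrial (red) and ventricular RNA (blue). They were chosen among called regions whose chamber libraries did not overlap, leaving out ESC-Neg regions such as that near Tmem17. Each row is a region named by its nearest gene and distance. Dots are libraries, open circles replicate 1 and ticks the mean of 5. By that choice red and blue do not overlap in any row, and the closest pair is Tnc at 28.7 and 28.4 CPM.

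The largest ventricular preference was near Fam169b (115.3 kb, chr7:68478186-68478585, vMTF-p300), with 147, 159, 150.4, 136 and 115 CPM in atrium, 501, 419, 398, 411 and 382 in ventricle and 44.4 to 76.5 in DNA. Replicate 1 held the highest ventricular value, and every library of either chamber was above every DNA library. The log2 atrium over ventricle was -1.56 ± 0.13 (adjusted p = 3.7e-07), -1.76 in replicate 1 and -1.49 in replicates 2 to 5. Further vMTF regions of this kind lay near Pcdh9, a protocadherin gene (1409 kb), Irx2 (253.2 kb), Tle4, a Groucho co-repressor gene (222.8 kb), Marcks (479 kb) and Fign, a microtubule-severing protein gene (138.9 kb).

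The Tle4 region (chr19:14225071-14225470) had 449, 517, 425, 509 and 534 CPM in atrium, 1124, 1139, 1271, 1151 and 1165 in ventricle and 116 to 153 in DNA. The chambers were well apart, at -1.25 ± 0.09 (adjusted p = 4.1e-08). Its log2 RNA over DNA was 1.79 ± 0.11 in atrium and 3.16 ± 0.09 in ventricle. The Marcks region had -1.24 ± 0.10, Fign -1.16 ± 0.13 and a p300AVB region 228.5 kb from Tet2, a gene of DNA demethylation, -1.17 ± 0.14 (adjusted p = 2.0e-07, 7.2e-06 and 1.3e-05). The Pcdh9 region was scarce, with 8.55 to 19.8 CPM in atrium, 34.3 to 45.0 in ventricle and 3.81 to 7.83 in DNA (-1.50 ± 0.33, adjusted p = 0.0023).

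Deserts beside 2 Iroquois genes each gave a region higher in ventricle. Irx2 and Irx3 encode homeodomain transcription factors with known roles in the heart. The Irx2 region (chr13:72371062-72371461, vMTF+p300) had 122, 118, 110.1, 159 and 109.9 CPM in atrium, 335, 359, 321, 253 and 278 in ventricle and 41.5 to 74.4 in DNA, and no ranges overlapped (-1.31 ± 0.16, adjusted p = 1.0e-05). The region 165.9 kb from Irx3 (chr8:91967378-91967777, aMTF+p300) had 43.7, 57.7, 47.8, 58.4 and 63.5 CPM in atrium and 99.6, 336, 82.1, 118 and 136 in ventricle over 31.0 to 38.9 in DNA. A single ventricular library, replicate 2, was far above the others, and without it the log2 value of -1.49 ± 0.34 (adjusted p = 0.0037) became -0.999, still called. Over its 16 alternatives the adjusted p of the Irx3 region was at most 0.023. The prefix of the Irx3 region reads aMTF, while its RNA was higher in ventricle.

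Against the same DNA libraries, 3 of 233 desert regions were called higher in one chamber and lower in the other, those near Cyld, Tmem17 and Itga6. The Cyld region kept both calls under all 17 alternatives of each comparison. The region 110.5 kb from Tmem17, a gene of primary cilia (chr11:22629578-22629977), carries the tag ESC-Neg. It gave 2081, 2017, 2734, 2363 and 2495 CPM in atrium, 702, 676, 839, 698 and 845 in ventricle and 889 to 1009.5 in DNA. Atrium was above all DNA libraries and ventricle below all of them, at 1.20 ± 0.09 and -0.34 ± 0.08 (adjusted p = 2.0e-08 and 0.0015), with 1.65 ± 0.10 between chambers (adjusted p = 1.9e-08). It was the single ESC-Neg desert region called higher in atrium than in ventricle. The atrial call and its direction held under all 17 alternatives, while the ventricular one was lost under 3 of 17, at -0.12 with library totals, -0.17 with scaling on Neg regions and 0.06 with the filter at a mean DNA count of 100, with adjusted p-values from 8.4e-06 to 0.49 over all 17.

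Further ESC-Neg desert regions passed the test in both directions. Above DNA were a region by Krr1, a ribosome assembly gene (118.2 kb; 30.4 to 84.6 CPM in atrium, 60.7 to 89.5 in ventricle, 4.67 to 12.4 in DNA), and one by 1700012A03Rik (153.2 kb; 30.9 to 58.6, 61.7 to 132 and 6.22 to 9.67), with ventricular log2 values of 2.98 ± 0.24 and 3.39 ± 0.26. A region by Ext1, a heparan sulfate polymerase gene, had 34.3, 38.1, 102, 52.2 and 67.8 CPM in atrium over 7.78 to 13.8 in DNA (2.40 ± 0.33, adjusted p = 1.4e-05). These ranges lay above DNA in every library. Called below DNA in both chambers were regions by Gm38457 (103.6 kb; 333 to 421 CPM in atrium, 297 to 389.7 in ventricle, 960.4 to 1239.6 in DNA), by Uaca (173.1 kb; 167 to 289, 285 to 420.5 and 470.3 to 627), and by Snx16, a sorting nexin gene (771.1 kb; 1.04 to 20.2, 3.07 to 7.998 and 13.4 to 20.9). Atrial libraries overlapped DNA in the Snx16 region, and the ventricular log2 values of these 3 regions were -1.61 ± 0.09, -0.62 ± 0.11 and -2.002 ± 0.32. Between chambers the 1700012A03Rik region and one by Rgs9 (115.2 kb), a regulator of G-protein signalling, were higher in ventricle, at -0.88 ± 0.27 and -0.76 ± 0.24 (adjusted p = 0.022 and 0.025), and both calls were lost with replicates 2 to 5 alone (adjusted p = 0.057 and 0.077). Over all alternatives their adjusted p ran from 0.0089 to 0.083 and from 0.0085 to 0.078, the highest for 1700012A03Rik without ventricular replicate 5, its high library.

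Adjacent pieces of one desert element often differed in value. The desert regions included 13 elements cut into adjacent 400-bp tiles, and in 6 of them both tiles were tested. The tiles had the same call against DNA in 2 pairs in atrium and 1 in ventricle, and opposite calls in 1 pair in each, with a median difference of 2.64 and 2.84 on the log2 scale. The pair with opposite calls lay 121 kb from Dact1, a Wnt modulator gene, with log2 RNA over DNA of 1.21 and -1.36 in atrium and 1.44 and -1.44 in ventricle. Its tiles had mean DNA counts of 24.8 and 360.2, and in 6 of 6 pairs the tile with less DNA had the higher value in both chambers. The part of DNA content in these differences was not tested.

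**Figure D5:**
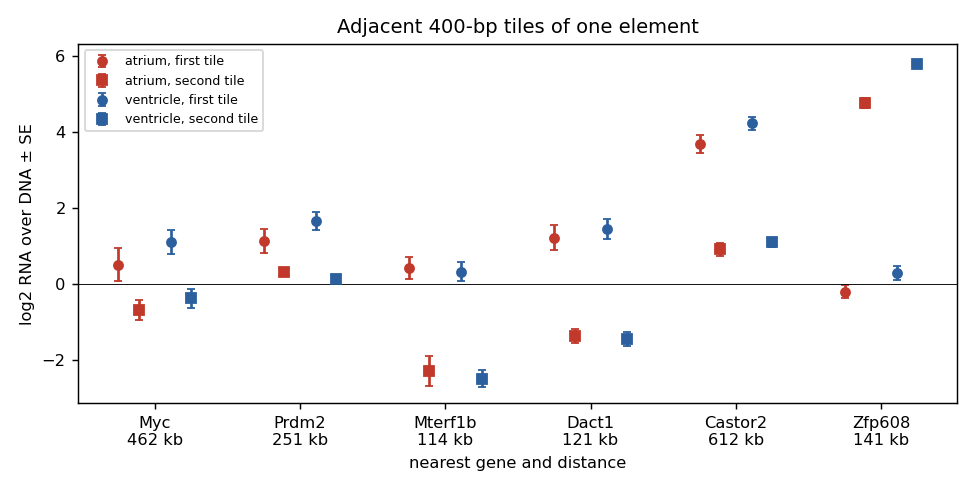
Log2 RNA over DNA (y axis, ± SE) of the 6 pairs of adjacent tested tiles, by nearest gene and distance (x axis), in atrium (red) and ventricle (blue). Circles are the first and squares the second tile of the pair along the chromosome. The tiles by Zfp608 differ the most, by 4.96 in atrium and 5.50 in ventricle.

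The widest pair lay on chromosome 18 near Zfp608, a zinc finger gene, in a desert locus of 5 regions. The tile 141.3 kb away had 65.5, 56.5, 44.7, 56.5 and 62.9 CPM in atrium, 44.0 to 96.7 in ventricle and 56.2 to 67.3 in DNA, overlapping it in both chambers. The adjoining tile, 141.7 kb away, had 808, 1015, 1013, 1006 and 1064 CPM in atrium, 1789, 1839.7, 1777, 1904 and 1934 in ventricle and 26.9 to 38.1 in DNA. No groups overlapped in the second tile, at 4.75 ± 0.13 over DNA in atrium, 5.77 ± 0.10 in ventricle and -0.90 ± 0.08 between chambers (adjusted p = 2.1e-12, 2.0e-16 and 7.8e-07). Another region, 158.6 kb away with the prefix aMTF+p300, had 302 to 455 CPM in atrium and 528 to 582 in ventricle over 18.7 to 41.5 in DNA, and was also higher in ventricle (-0.56 ± 0.12, adjusted p = 0.0021). The remaining 2 regions, 178.7 and 197.2 kb away, had mean DNA counts of 2.8 and 0.4 and were not tested.

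A desert between Dlx2, a homeobox gene, and Itga6, an integrin subunit gene, held 5 GeneAVB regions, the most tested regions of any desert locus. The first 2, 109.1 and 109.3 kb from Dlx2, overlap each other in sequence, and both were below DNA in both chambers (-1.89 ± 0.12 and -1.36 ± 0.13 in atrium, -1.47 ± 0.20 and -0.83 ± 0.11 in ventricle). The region 115.9 kb from Itga6 (chr2:71670821-71671220) had 115, 134, 144, 152 and 156 CPM in atrium, 278, 279.8, 256, 196 and 242 in ventricle and 149 to 185 in DNA. Its ventricular libraries were above DNA (0.60 ± 0.12) while the atrial ones overlapped it and were called lower (-0.33 ± 0.13, adjusted p = 0.027). That atrial call was lost or turned in sign under 8 of 17 alternatives, with adjusted p-values from 0.0037 to 0.98 and 4 of the 8 leaving out DNA replicate 1, 2, 3 or 5, while the ventricular one held under all 17. The region 113.5 kb away (chr2:71673150-71673549) had the opposite preference, with 945, 998, 805, 659 and 802 CPM in atrium, 439.9, 426, 481, 588 and 509 in ventricle and 864 to 1095 in DNA. Within this locus the log2 atrium over ventricle was thus -0.81 ± 0.15 and 0.80 ± 0.12 for these neighbours (adjusted p = 0.00069 and 0.00012). The fifth region, 116.4 kb away, had 0.58 ± 0.22 and was not called (adjusted p = 0.061), with atrial replicate 5 at 80.6 CPM against 166 to 198 in the others. Beside Nyap2 on chromosome 1, both tested regions, 357.3 and 387.7 kb away, were above DNA (1.96 ± 0.48 and 2.32 ± 0.28 in atrium, 1.83 ± 0.32 and 2.72 ± 0.26 in ventricle).

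The tested regions farthest from any protein-coding gene were by Stim2, an endoplasmic reticulum calcium sensor gene (1671 kb, ESC-Neg), by Pcdh9 (1409 kb) and by Klhl29 (1220.0 kb, ESC-Neg). The Stim2 region had 12.5, 44.0, 15.8, 29.4 and 36.0 CPM in atrium, 57.4, 46.3, 49.6, 36.7 and 43.7 in ventricle and 9.35 to 26.3 in DNA. Atrium overlapped DNA and ventricle did not, at 0.34 ± 0.38 and 1.19 ± 0.25 (adjusted p = 0.44 and 0.00034), and between chambers it was not called (adjusted p = 0.12). The Klhl29 region had 11.4, 315, 261, 325 and 331 CPM in atrium, 8.72, 418, 306, 362 and 326 in ventricle and 13.4 to 19.5 in DNA. Its calls over DNA (3.76 ± 0.63 and 4.06 ± 0.79, adjusted p = 0.00023 and 0.0012) came from replicates 2 to 5, at 4.05 and 4.28, while replicate 1 was below DNA in both chambers, at -0.40 and -0.81.

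Lists of nearby genes showed where the desert regions lay. Of 67 cardiac and mesoderm transcription factors, 15 had a desert region nearest to them, 26 regions in all, of which 14 were tested. Of these 14 regions, 7 were above DNA and 1 below it in atrium, 7 and 2 in ventricle, and between chambers 2 were called for atrium and 5 for ventricle. Above DNA, 7 of 14 is near the share of all tested desert regions (49.8% in atrium, 54.9% in ventricle; all regions 38.4% and 43.4%), and the chamber counts stand beside 15.8% and 15.1% of all regions. The other lists were small, with 9 tested regions for adhesion molecules and matrix (2 higher in atrium, 4 in ventricle), 5 for signalling (2 and 0) and 2 for ion channels and calcium handling (0 and 1). Besides Irx2, the transcription factor regions with the smallest p were by Sox11, a progenitor cell factor (151.1 kb, aMTF-p300), with 353, 284, 296, 275 and 275 CPM in atrium and 448 to 516 in ventricle over 107 to 130.3 in DNA, and by Klf12, a Krüppel-like repressor (175.7 kb), with 179.8 to 285, 352 to 434 and 62.8 to 90.3 CPM. Neither pair of chamber ranges overlapped (-0.70 ± 0.11 and -0.74 ± 0.15, adjusted p = 0.00011 and 0.0015). The ion channel region lay 120.4 kb from Ryr2, the calcium release channel of heart muscle (chr13:11432549-11432948, vMTF+p300). It had 52.0, 100.5, 45.2, 79.3 and 69.6 CPM in atrium, 137, 169, 136, 165 and 143 in ventricle and 8.37 to 12.4 in DNA, with the ventricle above the atrium in every library (-1.09 ± 0.22, adjusted p = 0.0013).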

How the data were processed

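The files hold raw whole-number counts for each region and library, which the authors deposited without normalization. Trizol and a column were used for RNA and proteinase K for AAV genomes, per the labels' protocols, before copying with a UMI primer and PCR. Tools named in the submitters' processing notes are cutadapt 2.5 and Bowtie2 2.3.4.3, with mm10. No source used here says whether reads or collapsed molecules were counted, so floors cover counting error only.

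Distances run from a region's midpoint to the nearest protein-coding gene body of RefSeq GRCm38.p6. The 2601 regions whose DNA counts averaged 10 or more were tested together with edgeR 4.0.16 in R 4.3.3 (quasi-likelihood, robust, TMM), 5 against 5 libraries, with Benjamini-Hochberg adjustment over all regions. Printed CPM were scaled over all 15 libraries, and fold changes over the 10 compared. Same-numbered atrial and ventricular libraries deviated together, at r = 0.819 for replicate 1 and 0.225 to 0.241 for replicates 2 to 5. These values are above the criterion of 0.1 set for pairs. The deviations are from group means that include replicate 1, which stood apart in both chambers. Differently numbered libraries were not compared, so the values cannot show that replicates 2 to 5 are pairs. Same-numbered RNA and DNA libraries stayed under the criterion (-0.032 to 0.061). Members, lists and alternatives were chosen with earlier results of these data known. Alternatives were library totals, Neg scaling, DESeq2 1.42.0, other filters and limits, the replicate block and left-out libraries. Named regions outside the ESC-Neg tag are the 8 highest and 4 lowest called, non-overlapping desert regions against DNA and the 8 largest such regions in each direction between chambers. Also named are the 2 largest ESC-Neg regions each way in each comparison, the 3 farthest, the 3 fullest loci, up to 3 per gene list and the 3 highest without DNA. A region that this rule names is not reported here.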

Additional observations from a re-analysis of the deposited data

Results flagged for a closer look

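Among 174 groups of 5 libraries examined, 19 held a library far from the other 4 by Dixon's criterion, where chance gives about 1 in 20, and 12 of the 19 were replicate 1 RNA libraries. Replicate 1 had 97 desert regions at 0 counts in atrium and 85 in ventricle, and gave 36.5 and 36.2 CPM summed over the desert regions without DNA counts. In those regions, which no main comparison uses, the summed CPM of replicates 2 to 5 was 3561 to 3734 in atrium and 3699 to 4186 in ventricle, against 0 in every DNA library. Nearer regions without DNA counts went the same way.

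Of single regions, replicate 1 stood low near Klhl29 (11.4 CPM in atrium, 8.72 in ventricle), Gadd45g (61.8 in ventricle) and Zfp608 (808 in atrium). It stood high near Sox11 (353 in atrium) and, in ventricle, near Cdyl (3204, the region 152.5 kb away), Arid1b (2255) and Chd9 (1649.7). Other libraries apart from their group were atrial replicate 4 near Irx2 (159 CPM), atrial replicate 5 near Itga6 (80.6), ventricular replicate 2 near Irx3 (336), ventricular replicate 3 near Tle4 (1271), ventricular replicate 5 near 1700012A03Rik (132) and Efnb2 (641), and DNA replicate 3 near Chd9 (5453).

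The atrium and ventricle were called in opposite directions against DNA in 3 regions, whose chamber difference was tested directly. The log2 atrium over ventricle was 1.65 near Tmem17, 1.54 near Cyld and -0.81 near Itga6.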

How the results depend on the processing

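With no filter on DNA, 238 desert regions were higher than DNA in atrium and 254 in ventricle, and the desert median exceeded the nearer one by 0.94 and 0.97 (0.60 and 0.66 as reported). With DNA means of 100 or more there were 63 higher and 34 lower in atrium, 62 and 41 in ventricle, and 20 and 26 between chambers, with median gaps of 0.43, 0.32 and -0.0035. Over 200 kb from a gene they were 54 and 17, 59 and 24, and 16 and 17, with gaps of 0.74 and 0.76 against DNA. Over 100 kb from a gene of any type they were 18 and 4, 17 and 3, and 8 and 8, with gaps of 0.80, 0.90 and -0.29. These 3 settings test or count fewer regions by construction. Calls among all regions were not counted under the alternatives. Means in place of medians gave 0.49 and 0.58 against DNA. Scaling on Neg regions left 22 called higher in ventricle. It shifted the median of all regions by 0.40 in atrium over DNA, 0.17 in ventricle over DNA and 0.16 between chambers, and library totals shifted the values against DNA by 0.33 and 0.21; the cause was not tested.

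Leaving out 1 library gave 111 to 119 higher and 43 to 55 lower in atrium (gap 0.57 to 0.66), 120 to 127 and 58 to 66 in ventricle (0.61 to 0.70), and 23 to 30 and 34 to 42 between chambers (-0.13 to -0.080). Without ventricular replicate 5 the ventricular gap was 0.61. With the replicate block, 107 and 54, 123 and 61, and 32 and 44 regions were called. The atrial call of the Itga6 region described as opposite was then lost (adjusted p = 0.079, 0.0037 to 0.98 over its alternatives). The 67 named results kept direction and side of the threshold under the block. Of 1102 alternatives of 67 named results, 1084 kept direction and side of the threshold. Many of these results were chosen because they were called with non-overlapping libraries, which favours keeping the call. Others were not called and count as kept where they stayed uncalled with the same sign. Most of these alternatives left out a single library and share the others with the main fit. At DNA means of 100 or more, 29 named results were the same and 1 was stronger. The other named results have less DNA and could not be checked under that setting. The log2 atrium over ventricle of the Klhl29 region, -0.17 and not called, turned to 0.13 without atrial replicate 1 and 0.0019 without ventricular replicate 2, with a range of -0.47 to 0.13 over left-out libraries. Low DNA counts limit the strongest ratios.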
